A study of Mus musculus with 63 samples.

Results

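Proximal tubule (PT) cells from mouse kidneys obstructed for 7 days (UUO-7) were compared with PT cells from sham-operated mice by small RNA sequencing. Every PT library labelled sham or UUO-7 was taken, 4 of each, which made 8 of the 63 libraries in the series, and all of their miRNA loci were analysed. A locus is 1 genomic position of a mature miRNA, and the count table holds 2110 of them, of which 330 had enough counts in PT cells to be tested. All mice were male C57BL/6 animals with no transgene, aged 8 to 12 weeks at surgery. Sham mice had the operation without obstruction. In the UUO-7 mice the ureter was tied off near the bladder, with a tube around its upper part to limit dilatation, and the kidney was taken 7 days later. Of the 5 mice operated per group the authors sequenced the 4 whose level of kidney injury molecule 1, a marker of tubular damage, lay closest to the group mean, so the spread within a group is that of selected mice. Digested cortex was sorted, and PT cells were those that bound Lotus tetragonolobus lectin (LTL), which recognises the brush border, and lacked CD45 and CD31. Endothelial cells (ECs), F4/80hi macrophages (Macs) and PDGFR-β+ stromal cells of the same mice, and PT cells after 2 days of obstruction (UUO-2) and after 7 days of obstruction followed by reimplantation of the ureter (R-UUO), served for comparison. PDGFR-β+ cells at UUO-7 had only 3 libraries, because the authors removed an outlying sample of that group. Each sorted sample pools the PT cells of 1 kidney, so that a change in which tubule cells carry the lectin ligand and a change of RNA within those cells cannot be told apart.

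Mature miRNAs are short RNAs cut from a hairpin, of which the 5p strand, the 3p strand or both are kept, and they repress mRNAs that pair with their seed, bases 2 to 8 of the miRNA. miRNAs with the same seed form a family and can share targets, and hairpins that lie close together are often transcribed as 1 cluster. Tubule cells are rich in miR-192 and miR-194, made from a common transcript, and in the miR-30 family. The miR-200 family is known for holding epithelial cells in the epithelial state, miR-21 for its rise in injured kidney, and miR-210 as a target of hypoxia-inducible factor. PT cells of an obstructed kidney are known to lose transport functions and to take on an injured, less differentiated state.

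The mature sequences of the miRNAs that the results turn on are given first, 5′ to 3′, from RefSeq on build GRCm38, with the seed in capitals. The first set is the miR-183/miR-96/miR-182 cluster on the minus strand of chromosome 6, which held 3 of the largest increases. Its members are counted at chr6:30165962-30165986 (miR-182-5p), chr6:30169506-30169528 (miR-96-5p) and chr6:30169711-30169732 (miR-183-5p), and no annotated host gene covers them.

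miR-182-5p: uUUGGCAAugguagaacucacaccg
miR-96-5p: uUUGGCACuagcacauuuuugcu
miR-183-5p: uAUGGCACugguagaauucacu

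The miR-200 family has 2 seeds and 2 genomic clusters, and is shown because its clusters moved to different extents. miR-141-3p (chr6:124717917-124717938) and miR-200c-3p (chr6:124718324-124718346) lie in an intron of Gm15884. miR-429-3p (chr4:156053916-156053937), miR-200a-3p (chr4:156054911-156054932) and miR-200b-3p (chr4:156055685-156055706) lie in an intron of Ttll10.

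miR-141-3p: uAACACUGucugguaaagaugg
miR-200a-3p: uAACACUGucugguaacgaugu
miR-200b-3p: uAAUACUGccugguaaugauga
miR-200c-3p: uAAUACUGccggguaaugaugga
miR-429-3p: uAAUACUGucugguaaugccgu

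The miR-181 family has 1 seed, and its members were called in opposite directions. miR-181c-5p (chr8:84178924-84178945) and miR-181d-5p (chr8:84178759-84178781) lie in an intron of Nanos3. miR-181a-5p and miR-181b-5p each have 2 loci, and those with the higher counts are at chr2:38852741-38852763 and chr2:38853845-38853868, where no host gene is annotated.

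miR-181a-5p: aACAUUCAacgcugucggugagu
miR-181b-5p: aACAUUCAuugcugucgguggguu
miR-181c-5p: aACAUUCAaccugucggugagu
miR-181d-5p: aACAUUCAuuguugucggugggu

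The next set makes up the body of the PT miRNA pool. miR-192-5p (chr19:6264857-6264877) and miR-194-5p (chr19:6264658-6264679, with a second locus on chromosome 1) lie side by side with no annotated host gene. miR-10a-5p (chr11:96317186-96317208) and miR-10b-5p (chr2:74726074-74726096, in an intron of Hoxd3) share a seed.

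miR-192-5p: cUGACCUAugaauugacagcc
miR-194-5p: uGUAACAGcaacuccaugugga
miR-10a-5p: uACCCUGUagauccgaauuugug
miR-10b-5p: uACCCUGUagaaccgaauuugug

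The last set holds single miRNAs among the largest changes. miR-204-5p (chr19:22750610-22750631) lies in an intron of Trpm3, miR-653-5p (chr6:3721355-3721375) in an intron of Calcr, miR-224-5p (chrX:72261085-72261105) in an intron of Gabre, miR-455-5p (chr4:63256867-63256888) in an intron of Col27a1 and miR-190a-5p (chr9:67236700-67236721) in an intron of Tln2. miR-21a-5p (chr11:86584120-86584141) overlaps an exon of Vmp1 and miR-29c-3p (chr1:195037600-195037621) an exon of the noncoding A330023F24Rik, while let-7i-5p (chr10:122985698-122985719) and miR-193a-3p (chr11:79712009-79712030) have no annotated host gene.

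miR-204-5p: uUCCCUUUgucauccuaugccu
miR-653-5p: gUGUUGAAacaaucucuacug
miR-224-5p: uAAGUCACuagugguuccguu
miR-21a-5p: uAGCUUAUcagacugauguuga
let-7i-5p: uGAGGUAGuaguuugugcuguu
miR-29c-3p: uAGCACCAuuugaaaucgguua
miR-455-5p: uAUGUGCCuuuggacuacaucg
miR-190a-5p: uGAUAUGUuugauauauuaggu
miR-193a-3p: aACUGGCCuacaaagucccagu

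Depth differed between the groups. The sham libraries held 622689 to 987306 miRNA counts and the UUO-7 libraries 1665115 to 5093294, with no overlap, so depth and condition cannot be told apart in these libraries, and the comparison was repeated after thinning every library to the smallest PT total. Levels are given as CPM, a miRNA's counts relative to the scaled total of its library, on edgeR's TMM scale, set within the 16 PT libraries, and since a read of a miRNA covers the whole molecule no length correction applies. The floor set for a library, 3 counts, was worth 2.71 to 3.83 CPM in sham and 0.755 to 1.64 CPM at UUO-7. UUO-7 replicate 4 stood apart from the other UUO-7 libraries, with the highest total and a TMM factor of 0.781 where the other 3 had 0.920 to 1.1, and results that rest on it are also given without it. No pair of replicate libraries agreed within sampling noise, and all were counted as separate samples. As a check of the sort, miR-192-5p and miR-194-5p were far more abundant in PT cells than in the other populations of the same mice. On a scale set over all 63 libraries, miR-192-5p averaged 118300 ± 13970 CPM in PT sham (SD, n = 4), against 3043 in ECs, 3889 in Macs and 2861 in PDGFR-β+ cells. miR-204-5p, taken as a tubule marker here, was not highest in PT cells in sham, where it averaged 112 ± 20.1 CPM against 2796 ± 741 in ECs, and miR-215-5p was at or near the floor in all 4 populations (mean 1.84 CPM in PT sham).

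Obstruction for 7 days moved a large part of the PT miRNA profile. A locus was called when edgeR's quasi-likelihood test gave a Benjamini-Hochberg adjusted p under 0.05 and the fold change exceeded 1.5. In PT cells 84 of 330 tested loci (25.5%) were called higher at UUO-7 and 58 (17.6%) lower, 142 (43.0%) in all. The increases were larger than the decreases, with 38 loci higher by a log2 of at least 2 and 4 lower by as much. For 170 loci (51.5%) every library of 1 group lay above every library of the other, among them 76 of those called higher and 54 of those called lower. Some loci share their reads with a locus on the opposite strand, and leaving out loci identical to or overlapping another locus of higher count left 77 higher and 55 lower calls.

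**Figure D1:**
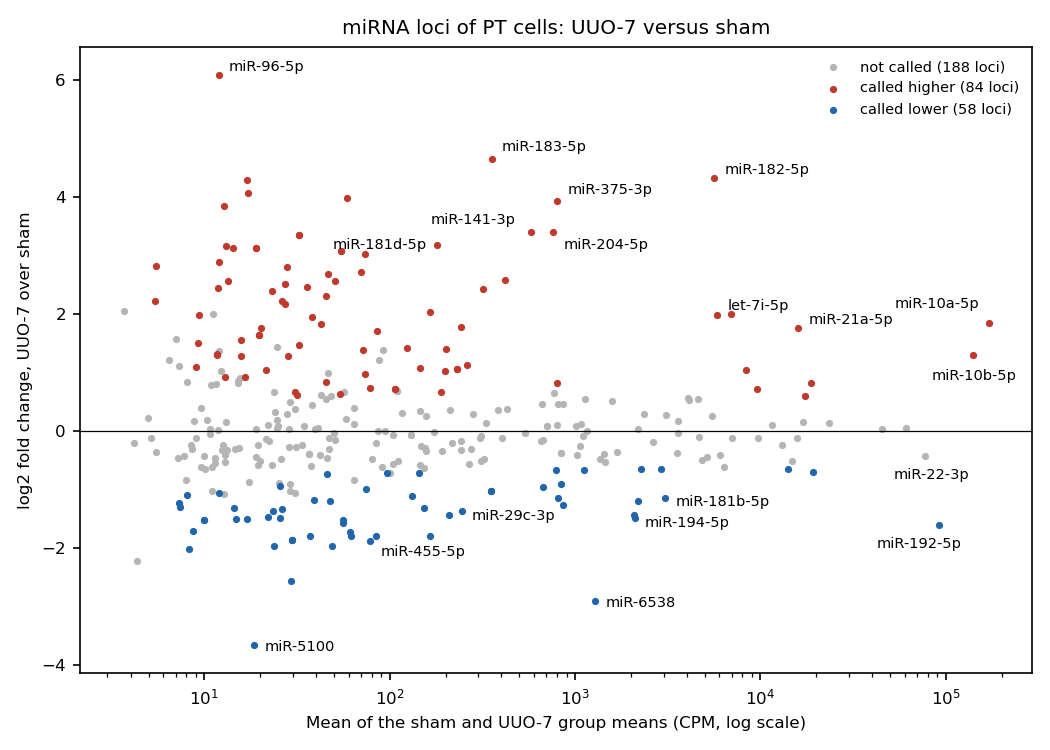
Each point is 1 of the 330 tested miRNA loci in PT cells, with the mean of the sham and UUO-7 group means in CPM on a log axis and the log2 fold change of UUO-7 over sham. The 84 loci called higher reached a log2 of 6.08, the 58 called lower reached -3.66, and miR-10a-5p, miR-10b-5p and miR-192-5p lie at the abundant end.

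The balance of the calls depended on the scaling. Under TMM the median log2 fold change of all tested loci was 0.00218, and scaling by library size alone shifted it to -0.365 and gave 61 higher and 80 lower calls. All 58 loci called lower and 60 of the 84 called higher were called in the same direction under that scaling and none in the opposite direction. At equal depth 64 loci were called higher and 45 lower, of which 63 and 45 were among those called at full depth. The filter was run again on the thinned counts and left fewer loci to test, so a call absent there can be a locus no longer tested. In the miR-17 to miR-92a list, for example, 11 loci were tested instead of 16. Leaving out UUO-7 replicate 4 gave 70 higher and 52 lower calls.

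The shift in scale accompanied a change in the few miRNAs that make up most of the pool. miR-10a-5p and miR-10b-5p, encoded within the Hox clusters, together took 18.5% ± 0.835 of all miRNA counts in the sham libraries and 43.1% ± 4.96 at UUO-7 (SD, n = 4 each). miR-192-5p, the most abundant miRNA in sham, took 16.7% ± 1.22 and then 4.39% ± 1.55. miR-22-3p took 10.6% ± 0.172 in sham and 6.16% ± 0.704 at UUO-7, with no overlap between the groups. A share falls when another miRNA rises, so the scaled levels are given next.

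**Figure D2:**
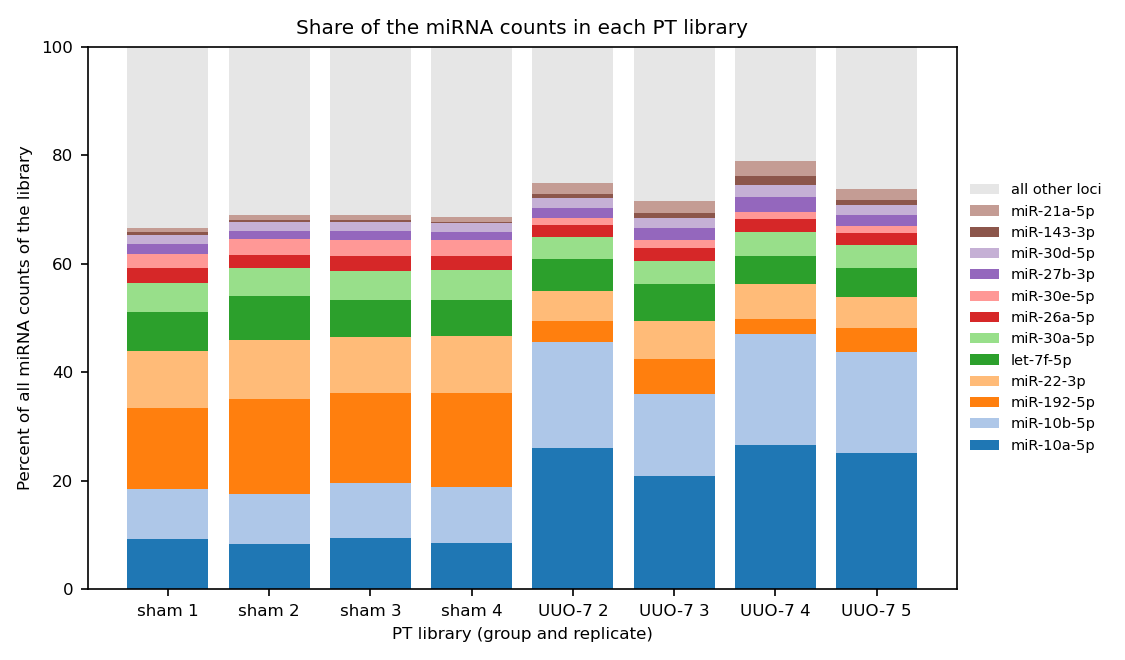
Stacked bars give the percent of all miRNA counts taken by 12 loci and by all other loci in each of the 8 PT libraries, with the group and replicate number below. miR-10a-5p rose from 8.28% to 9.41% of the counts in the sham libraries to 20.9% to 26.5% at UUO-7, and miR-192-5p fell from 14.9% to 17.6% to 2.75% to 6.46%.

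On the TMM scale miR-10a-5p measured 71630, 65870, 83820 and 74770 CPM in the sham libraries and 284000, 190200, 339100 and 254400 at UUO-7, an increase by a log2 of 1.85 ± 0.425 (SE, edgeR adjusted p = 0.00246). miR-10b-5p measured 72670, 73240, 89890 and 89020 CPM in sham and 212200, 137100, 264000 and 188600 at UUO-7 (log2 1.30 ± 0.404, edgeR adjusted p = 0.0157). Every UUO-7 library lay above every sham library for both miRNAs. For miR-10b-5p the call was lost without UUO-7 replicate 4, where the log2 was 1.12, and with no filter (log2 1.41). Their 3p strands rose with them, miR-10a-3p from 67.9 ± 22.5 to 181 ± 38.6 CPM and miR-10b-3p from 16.4 ± 6.45 to 40.0 ± 11.3 CPM. In all, 4 of the 10 tested loci of the miR-10/miR-196 list rose and miR-196a-2-3p fell, where 25.5% and 17.6% of all tested loci did. The list's median log2 was 0.465 against 0.00218 over all tested loci. Without UUO-7 replicate 4, 2 were called higher and 1 lower. The call of miR-10b-3p was lost there, without sham replicate 2 or 4 and under library size scaling (log2 0.90).

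miR-192-5p measured 116800, 140300, 147900 and 152300 CPM in sham and 42560, 58810, 35260 and 45120 at UUO-7 (log2 -1.62 ± 0.316, edgeR adjusted p = 0.000712). miR-194-5p, from the same cluster, measured 2606, 3019, 3254 and 3314 CPM in sham and 1064, 1455, 911 and 1079 at UUO-7 (log2 -1.44 ± 0.265, edgeR adjusted p = 0.00047). The groups did not overlap for either miRNA, and the minor miR-194-5p locus on chromosome 1 fell as well (log2 -1.18). Of the 8 loci in the miR-192/miR-194/miR-215 list 5 could be tested, and those 3 were called lower, against 17.6% of all tested loci. The list's median log2 was -1.18. The minor strands miR-192-3p (log2 -0.46) and miR-194-2-3p (log2 -0.91) did not pass the test.

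The largest increases were those of the miR-183/miR-96/miR-182 cluster, known for its expression in sensory cells and several epithelia. miR-182-5p, by far the most abundant of the 3, measured 873, 461, 352 and 449 CPM in the sham libraries and 10180, 6132, 16080 and 10300 at UUO-7 (log2 4.32 ± 0.494, edgeR adjusted p = 8.92e-06). miR-183-5p measured 51.8, 11.5, 21.7 and 23.5 CPM in sham and 667, 410, 935 and 715 at UUO-7 (log2 4.64 ± 0.520, edgeR adjusted p = 8.37e-06). miR-96-5p had 1 count in 4 sham libraries and 272 in 4 UUO-7 libraries, and its UUO-7 levels were 22.6, 10.9, 41.8 and 19.1 CPM. With a single sham count the ratio of its summed levels was 102, with an exact 95% binomial interval of 18.1 to 4030 that covers counting error only. No UUO-7 library came near a sham library for any of the 3, and all 3 remained called higher under library size scaling, at equal depth and without UUO-7 replicate 4, whereas under DESeq2 miR-96-5p missed the threshold at a log2 of 6.16.

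The miR-200 family rose in 1 of its clusters. miR-141-3p measured 127, 72.9, 82.1 and 119 CPM in sham and 629, 668, 2169 and 764 at UUO-7 (log2 3.40 ± 0.532, edgeR adjusted p = 0.00016), with the highest value in UUO-7 replicate 4. miR-200c-3p, its neighbour, measured 32.4, 17.9, 7.22 and 7.84 CPM in sham and 120, 128, 135 and 144 at UUO-7 (log2 3.02 ± 0.434, edgeR adjusted p = 8.16e-05). Neither miRNA overlapped between groups, and miR-141-5p was called too (log2 1.98), though not without UUO-7 replicate 4 (log2 1.46), sham replicate 1 (log2 1.65) or sham replicate 4 (log2 1.77). The members on chromosome 4 were more abundant in sham and were not called. miR-200b-3p averaged 3769 ± 275 CPM in sham and 5468 ± 404 at UUO-7, a log2 of 0.54 that passed the adjusted p (0.000811) but not the fold change. miR-200a-3p (log2 0.46) and miR-429-3p (log2 0.29) did not pass either criterion. Of 8 tested loci of the list, 3 were called higher and none lower, against 25.5% and 17.6% of all tested loci. The list's median log2 was 0.499.

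miR-204-5p, which is encoded in Trpm3 and known for its expression in kidney and retinal epithelium, measured 166, 119, 133 and 110 CPM in sham and 1488, 1061, 1749 and 1277 at UUO-7. It rose by a log2 of 3.40 ± 0.249 (edgeR adjusted p = 4.07e-08), and the lowest UUO-7 library lay far above the highest sham library. miR-375-3p, best known from pancreatic islets, had the smallest adjusted p of all and measured 96.0, 123, 85.7 and 89.5 CPM in sham and 1530, 1088, 1861 and 1548 at UUO-7 (log2 3.94 ± 0.242, edgeR adjusted p = 5.85e-09). miR-653-5p measured 6.47, 10.2, 9.02 and 2.24 CPM in sham and 83.5, 97.4, 171 and 92.3 at UUO-7 (log2 3.98 ± 0.499, edgeR adjusted p = 2.46e-05). All 3 kept their call under every alternative computed. Among less abundant miRNAs, miR-224-5p rose from 1.53 ± 2.04 to 32.6 ± 7.84 CPM and miR-298-5p from 1.56 ± 1.2 to 24.1 ± 4.65 CPM, where the sham levels lie below the value of 3 counts in a library. miR-9-5p, known from neurons and chosen for mention after its values were seen, was called higher at all 3 of its loci, and with these summed its log2 was 3.24 (edgeR adjusted p = 4.80e-05).

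**Figure D3:**
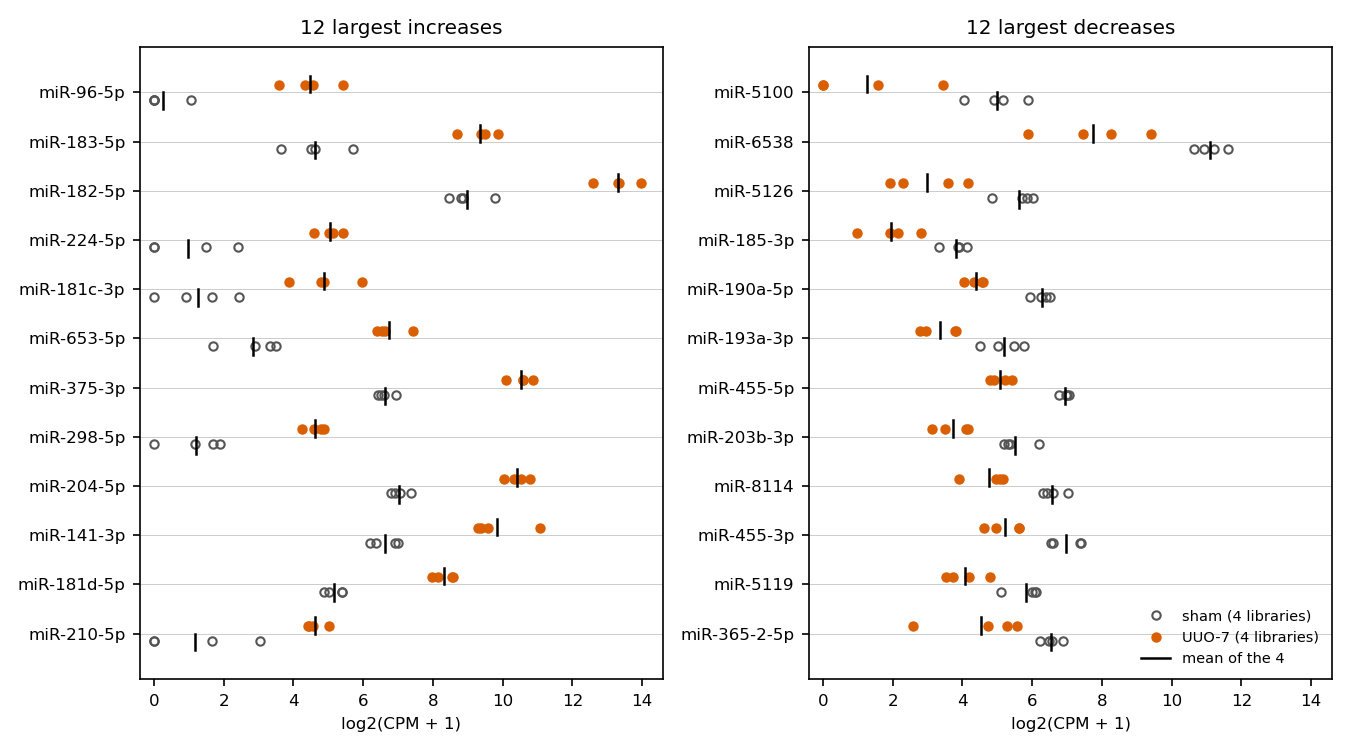
Points are log2(CPM + 1) of the 4 sham libraries (open) and 4 UUO-7 libraries (filled) for the 12 largest increases and 12 largest decreases among called miRNAs whose groups do not overlap, with a black line at the mean of 4. miR-182-5p and miR-6538 are the most abundant in the left and right panel, and the UUO-7 libraries of miR-6538, miR-5126 and miR-5100 are spread more widely than their sham libraries.

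The miR-181 family split by genomic cluster although its 5p members share a seed. Of 9 tested loci 3 were called higher and 3 lower (3 and 5 under library size scaling), against 25.5% and 17.6% of all tested loci. miR-181c-5p measured 97.1, 99.7, 119 and 82.8 CPM in sham and 398, 409, 862 and 466 at UUO-7 (log2 2.42 ± 0.415, edgeR adjusted p = 0.000315). miR-181d-5p measured 41.0, 28.1, 31.6 and 41.4 CPM in sham and 281, 252, 385 and 376 at UUO-7 (log2 3.18 ± 0.332, edgeR adjusted p = 4.70e-06). The same hairpin's miR-181c-3p rose from 1.88 ± 1.94 to 32.7 ± 20.6 CPM, so that the whole Nanos3 cluster was called higher. miR-181b-5p on chromosome 2 measured 4071, 3842, 4864 and 4046 CPM in sham and 1950, 2330, 1301 and 2022 at UUO-7 (log2 -1.15 ± 0.215, edgeR adjusted p = 0.000539). Its second locus on chromosome 1 fell alike (log2 -1.15), and with both loci summed the log2 was -1.06. miR-181a-5p, the most abundant member at 17370 ± 2308 CPM in sham and 12170 ± 342 at UUO-7 on chromosome 2, had an adjusted p of 0.00414 but a log2 of -0.51, short of the fold change. The summed level of the list was 25150 to 33150 CPM in sham and 18690 to 20370 at UUO-7, without overlap.

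Among the more abundant miRNAs called higher were miR-21a-5p and let-7i-5p. miR-21a-5p measured 6172, 7329, 8221 and 7569 CPM in sham and 21500, 19280, 36100 and 21700 at UUO-7 (log2 1.75 ± 0.359, edgeR adjusted p = 0.00099), with no overlap, and miR-21a-3p rose from 110 ± 19.0 to 290 ± 93.5 CPM. let-7i-5p measured 2735, 2301, 2400 and 1984 CPM in sham and 8503, 6899, 12750 and 9246 at UUO-7 (log2 1.99 ± 0.261, edgeR adjusted p = 3.81e-05). The groups of let-7i-5p did not overlap. It was 1 of only 2 called loci, with let-7j, among 21 tested loci of the let-7 list, against 43.0% of all tested loci. The list's median log2 was -0.122, and 2 of its loci were called higher and 3 lower under library size scaling. let-7f-5p, the most abundant member, averaged 60030 ± 3444 CPM in sham and 61930 ± 5053 at UUO-7 and its 4 libraries overlapped.

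Of 8 tested loci of the miR-23/miR-27/miR-24 clusters 7 were called higher, against 25.5% of all tested loci, with a median log2 of 1.18. Among the 7, miR-27b-3p averaged 13580 ± 705 CPM in sham and 24050 ± 7607 at UUO-7. Its log2 was 0.82 (edgeR adjusted p = 0.0103), and 0.55 and no longer called without UUO-7 replicate 4. miR-23a-3p rose more, from 64.9 ± 19.3 to 266 ± 62.4 CPM (log2 2.04 ± 0.363), and miR-27a-3p from 111 ± 6.83 to 376 ± 198 CPM (log2 1.77 ± 0.398). Of the 7 calls, 4 held under library size scaling and 5 without UUO-7 replicate 4.

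In the miR-17 to miR-92a clusters and their paralogs, known to promote proliferation, 4 of 16 tested loci were called higher and 1 lower, against 25.5% and 17.6% of all tested loci, with a median log2 of 0.675. With loci of 1 mature name summed, 7 of 14 were called higher and none lower. The cluster in Mir17hg on chromosome 14 held all 4, with miR-17-5p rising from 49.9 ± 12 to 97.5 ± 14.7 CPM and miR-20a-5p from 32.3 ± 11.9 to 58.0 ± 6.87 CPM. Both calls were lost under library size scaling (log2 0.61 and 0.49), and that of miR-20a-5p also with no filter, when thinned and without sham replicate 2 or 3. miR-92a-3p was called higher at its chromosome 14 locus (5480 ± 384 to 11290 ± 1031 CPM) and lower at its locus on chromosome X (1219 ± 147 to 509 ± 142 CPM). Both loci encode the same mature sequence, and how reads that match several loci were placed is not stated, so the summed level is the safer value, a log2 of 0.90 (edgeR adjusted p = 0.000139).

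Both tested strands of miR-210 and 2 of 3 tested loci of the miR-146/miR-155/miR-147 list were called higher, against 25.5% of all tested loci. miR-210-3p, induced by hypoxia, measured 13.0, 8.95, 7.22 and 3.36 CPM in sham and 26.0, 47.1, 68.2 and 44.5 at UUO-7 (log2 2.51 ± 0.506, edgeR adjusted p = 0.000865), and miR-210-5p rose as well (log2 3.17). miR-155-5p, a regulator of immune responses, rose from 15.9 ± 7.37 to 60.7 ± 15.7 CPM (log2 1.94), miR-146b-5p, a brake on innate immune signalling, from 163 ± 26.3 to 357 ± 43.6 CPM (log2 1.13), while miR-146a-5p averaged 253 ± 26.8 and 310 ± 95.4 CPM and was not called (log2 0.29, edgeR adjusted p = 0.333). miR-132-3p rose from 9.72 ± 4.28 to 44.5 ± 9.73 CPM (log2 2.17). miR-34a-5p and miR-34c-5p, induced by p53, were both called, at a log2 of 0.62 and 1.76, but the sham and UUO-7 libraries of miR-34a-5p overlapped and its call was lost under 9 of the other settings. miR-31-5p rose from 18.4 ± 8.67 to 121 ± 36.8 CPM (log2 2.72).

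miR-29c-3p, of the family that targets collagen mRNAs, measured 353, 334, 338 and 386 CPM in sham and 107, 172, 142 and 123 at UUO-7 (log2 -1.37 ± 0.186, edgeR adjusted p = 5.21e-05). The groups did not overlap. Of the 4 tested loci of the miR-29 list 2 were called lower, against 17.6% of all tested loci, with a median log2 of -0.905. Library size scaling called all 4 lower, thinning 1. The second call, miR-29b-3p on chromosome 1, was lost in 6 settings, among them thinning, no filter and without UUO-7 replicate 2 or 5 or sham replicate 4. miR-29a-3p, the most abundant of them, averaged 1165 ± 61.6 CPM in sham and 971 ± 265 at UUO-7 and was not called (edgeR adjusted p = 0.306). In the miR-30 family, abundant in tubule cells, miR-30e-5p fell from 23770 ± 2857 to 14560 ± 1633 CPM and miR-30c-5p from 17230 ± 2446 to 11010 ± 733 CPM at its chromosome 1 locus. With the loci of miR-30c-5p summed its log2 was -0.56, short of the fold change. miR-30a-5p, the most abundant, averaged 44670 ± 3537 CPM in sham and 45690 ± 7874 at UUO-7, and miR-30d-5p rose from 13890 ± 861 to 21080 ± 4930 CPM, a call lost in 8 other settings, among them library size scaling (log2 0.23), thinning (log2 0.53) and without UUO-7 replicate 4 (log2 0.41). Of 12 tested loci of that family 2 were called higher and 3 lower, against 25.5% and 17.6% of all tested loci. Thinning gave 0 and 3, library size scaling 0 and 4, and summing loci of 1 mature name 3 and 1. The median log2 of 0.0777 was -0.278 under library size scaling and 0.207 with such loci summed.

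miR-455-5p, encoded in the collagen gene Col27a1, measured 133, 107, 125 and 127 CPM in sham and 26.5, 41.6, 28.7 and 36.3 at UUO-7 (log2 -1.89 ± 0.295, edgeR adjusted p = 0.00016). miR-455-3p from the other arm fell from 130 ± 41.8 to 37.8 ± 12.7 CPM. miR-190a-5p, in Tln2, measured 60.4, 90.8, 75.8 and 83.9 CPM in sham and 22.6, 23.0, 15.4 and 19.1 at UUO-7 (log2 -1.96 ± 0.329, edgeR adjusted p = 0.00025). Their sham and UUO-7 libraries were far apart, and miR-193a-3p (37.6 ± 14.0 to 9.68 ± 3.87 CPM) and miR-203-3p, known from differentiating epidermis (473 ± 67.9 to 232 ± 27.6 CPM), fell as well. miR-107-3p fell from 965 ± 52.3 to 608 ± 63.1 CPM, the only call among 7 tested loci of the miR-26 and miR-103/miR-107 list, where library size scaling gave 5 calls, all lower. That call was lost with loci of 1 mature name summed (log2 -0.58) and with no filter (log2 -0.58).

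The largest decreases by fold were those of miR-5100, miR-6538 and miR-5126. miR-6538, counted at chr12:26414970-26414988, measured 2399, 3146, 1585 and 1945 CPM in sham and 173, 683, 57.9 and 304 at UUO-7 (log2 -2.90 ± 0.834, edgeR adjusted p = 0.0103). Its call was lost with no filter (log2 -2.85). miR-5100 averaged 34.3 ± 17.9 CPM in sham and 2.95 ± 4.69 at UUO-7, where 2 of the 4 libraries held no count, and miR-5126 fell from 50.1 ± 15.6 to 8.66 ± 6.62 CPM. No UUO-7 library of the 3 reached the lowest sham library, and the spread within UUO-7 was wide, since for miR-6538 the highest of the 4 was in replicate 3 and the lowest in replicate 4. miR-8114, which lies in an exon of the glutamine synthetase gene Glul, fell from 96.5 ± 22.9 to 27.8 ± 9.53 CPM, miR-5119 from 57.7 ± 16.4 to 16.7 ± 7.29 CPM, miR-365-2-5p from 93.5 ± 17.9 to 28.6 ± 17.9 CPM, miR-185-3p from 13.3 ± 3.19 to 3.30 ± 2.10 CPM and miR-203b-3p from 46.3 ± 17.0 to 12.8 ± 4.49 CPM. The miR-185-3p call was lost without UUO-7 replicate 5, at a log2 of -1.71, and in 3 other settings. The reads of miR-203b-3p cannot be told from those of miR-203-5p on the opposite strand of the same position.

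Other families gave few calls or none. None of the 4 tested loci of miR-221/miR-222, 5 of miR-148/miR-152, 4 of miR-191/miR-425, 2 of miR-378 and 3 of the miR-532 to miR-188 cluster was called, under thresholds at which 43.0% of all tested loci were. miR-148a-3p, at a log2 of 0.64, was called higher in some other settings. These were no filter (log2 0.75), only the 2 groups in the fit (log2 0.64), the replicate block (log2 0.81) and loci of a name summed (log2 0.73). miR-22-3p, at 88510 ± 4664 CPM in sham and 65980 ± 11430 at UUO-7, missed the adjusted p at 0.0506 with a log2 of -0.42, although its groups did not overlap. Of the miR-15/miR-16 family 3 of 9 tested loci were called higher, against 25.5% of all tested loci. They were miR-322-5p and miR-322-3p of the cluster on chromosome X and the minor strand miR-16-1-3p. The family's median log2 of 0.329 was -0.0663 under library size scaling. The call of miR-322-5p, at an adjusted p of 0.0484, was lost under 12 other settings, each of the 8 left-out libraries among them. Of 11 tested loci of the miR-99/miR-100/miR-125 list, 4 were called higher, against 25.5% of all tested loci. Under library size scaling 1 was higher and 3 lower, with the median log2 of 0.287 turning to -0.0394. The Sfmbt2 cluster had no locus with enough counts, and the summed level of its 139 loci was 2.56 to 10.1 CPM in sham and 29.0 to 44.0 at UUO-7. In the imprinted Dlk1-Dio3 cluster 4 of 115 loci were testable and 2 called higher, miR-127-3p and miR-541-5p, against 25.5% of all tested loci. The calls rested on UUO-7 replicate 3, where miR-127-3p measured 213 CPM against 28.0, 34.0 and 28.2 in the other UUO-7 libraries, and without it the log2 of 2.31 became 0.98 and that of miR-541-5p fell from 2.57 to 1.26, neither called.

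**Figure D4:**
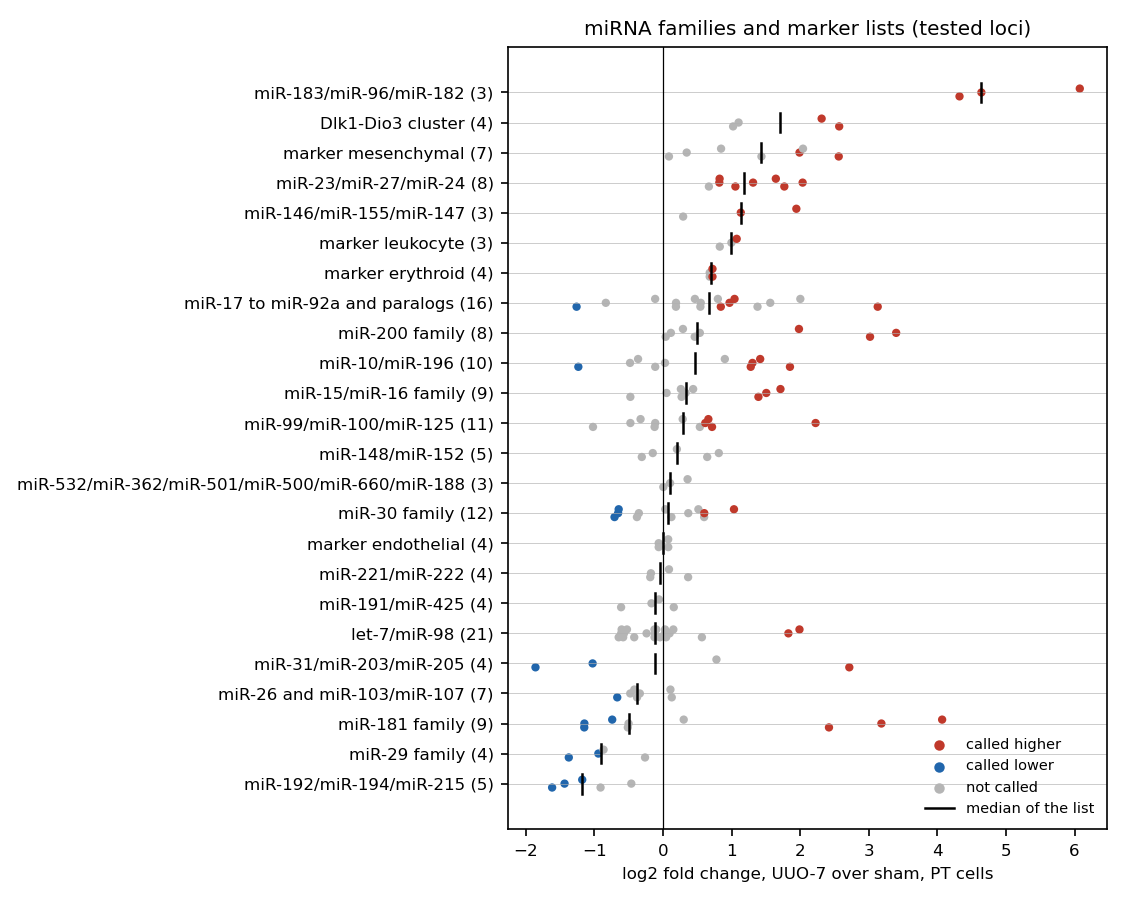
Each point is the log2 fold change of a tested locus in PT cells at UUO-7 over sham, grouped by family or marker list with the number of tested loci in parentheses, coloured by call and with a black line at the list's median. By its median the miR-183/miR-96/miR-182 list lies highest and the miR-192/miR-194/miR-215 list lowest, while the miR-181 list holds calls in both directions.

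Strands, clusters and seeds were compared next, as properties that the grouping of the libraries did not use. Loci identical to or overlapping a locus of higher count were left out here. Of 87 hairpins with both strands tested, the strands had the same sign of change in 74. Both strands were called in 19 hairpins, 12 with both higher and 7 with both lower, and no hairpin had strands called in opposite directions. The 7 with both lower were miR-101a, miR-185, miR-187, miR-324, miR-339, miR-455 and miR-874. Tested loci from different hairpins within 10 kb of each other formed 33 genomic clusters of 118 loci, where hairpins on opposite strands of 1 position counted once. Calls were only higher in 13 of them, only lower in 6 and mixed in none. Some of these held a single call and could not be mixed, among them the clusters of miR-127-3p and miR-100-5p. The clusters with every tested locus called were miR-183/miR-96/miR-182, miR-141/miR-200c, miR-181c/miR-181d, miR-23a/miR-27a/miR-24-2 and a cluster of 5 loci on chromosome X with miR-322, miR-351, miR-542 and miR-450b (median log2 2.22) on the higher side, and miR-29b-2/miR-29c on the lower side. Strands and neighbours come from the same precursor RNA and are not independent of each other.

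Seeds did not divide the calls as cleanly. Among the 282 tested loci with a RefSeq sequence, 28 seeds were shared by at least 2 different sequences, of which 16 had calls in 1 direction, 4 in both and 8 in none. The 4 mixed seeds were ACAUUCA of the miR-181 family, CCAUCGA of miR-181a-1-3p and miR-181c-3p, AUUGCAC of the miR-92 family and CAAAGCA of miR-6240 and miR-330-3p. In AUUGCAC both calls were of miR-92a-3p, whose 2 loci hold the same sequence and were called higher when summed (log2 0.90). That seed is therefore mixed by locus and not by sequence. The seed GUAAACA of miR-30a, miR-30c and miR-30e had 3 calls, all lower. Of these calls 2 were loci of miR-30c-5p, which was not called with its loci summed (log2 -0.56). miR-30b-5p (log2 0.52, not called) and miR-30d-5p, called higher, were not among the loci compared by sequence. In the seed UCACAGU of miR-27a-3p and miR-27b-3p both were higher, and in GAGGUAG of let-7 the sole call of 12 loci was let-7i-5p. The loci called lower had a higher GC content, with a median of 54.5% (n = 48), than those called higher, 47.6% (n = 67), and all tested, 47.8% (n = 282). Across the 282 loci the log2 fold change and GC content had Pearson's r of -0.223 and Spearman's rho of -0.177, a description over loci that share the 8 libraries and their depths.

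Markers of the other cell types of the kidney were read in the same libraries. The endothelial miR-126 list was called at none of 4 tested loci, and its summed level was 1351 to 1890 CPM in sham and 1433 to 2073 at UUO-7. The loci of miR-126b repeat the reads of miR-126a, so the 4 loci hold 2 separate signals and the sum counts each read at 2 loci. Alone, miR-126a-5p measured 588 to 807 CPM in sham and 610 to 890 at UUO-7, and miR-126a-3p 87.3 to 161 and 106 to 147. On the scale of all libraries, miR-126a-5p in PT cells was 0.464% of its level in ECs in sham and 0.505% at UUO-7. Of the leukocyte list 3 of 9 loci could be tested and miR-142a-5p was called higher, where 25.5% of all tested loci were. It averaged 94.2 ± 17.5 CPM in sham and 199 ± 44.4 at UUO-7, and its call was lost under library size scaling (log2 0.75). On the scale of all libraries its PT level was 0.219% and 1.04% of that in Macs. In Macs it averaged 36490 CPM in sham and 17350 at UUO-7, so this share moves with both populations. The summed level of that list was 110 to 159 CPM in sham and 194 to 357 at UUO-7, without overlap, and the macrophage marker miR-511-3p had no count in the sham libraries and 3 at UUO-7. The part that leukocyte RNA had in the increases of miR-155-5p and miR-146b-5p was not tested.

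Of the mesenchymal marker list 2 of 7 tested loci were called higher, against 25.5% of all tested loci. The summed level of the list was 1966 to 4239 CPM in sham and 7588 to 20510 at UUO-7, of which miR-143-3p gave most. miR-143-3p, known from smooth muscle, measured 4010, 2683, 2697 and 1795 CPM in sham and 7313, 8088, 20080 and 8939 at UUO-7 (log2 1.99 ± 0.540, edgeR adjusted p = 0.00749), without overlap. It and miR-145a-5p (14.8 ± 4.85 to 86.8 ± 26.8 CPM) were those called, the second not without sham replicate 4 (log2 2.36) and the first not under DESeq2 (log2 1.98), while the fibroblast markers miR-199a-3p (log2 0.35), miR-199a-5p (log2 0.85) and miR-199b-3p (log2 0.09) were not called. With no filter the calls of miR-143-3p (log2 2.11) and miR-145a-5p (log2 2.67) were lost as well. In PDGFR-β+ cells themselves miR-143-3p averaged 365900 CPM in sham and 135900 at UUO-7, miR-145a-5p 1291 and 557, and miR-199a-3p 3594 and 15850. The share that the PT level makes of the PDGFR-β+ level moves with both populations, and it went from 0.648% to 7.39% for miR-143-3p, from 0.973% to 14.2% for miR-145a-5p and from 3.01% to 0.924% for miR-199a-3p. Among red cell markers the defining miR-451a had 3 counts in sham and 8 at UUO-7 and miR-144-3p none and 2, and only a pair of loci with identical counts, miR-486a-3p and miR-486b-5p, was called higher (80.6 ± 21.0 to 133 ± 38.2 CPM), a call lost without 7 of the 8 libraries left out in turn. Without UUO-7 replicate 4, and with loci of 1 mature name summed, all 4 tested loci of the list were called higher. Of those 4, 2 share their reads with the other 2. Of the muscle list 1 of 17 loci was testable, miR-133a-3p, at 8.03 ± 4.71 CPM in sham and 23.4 ± 4.81 at UUO-7.

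Far fewer loci were called between UUO-7 and UUO-2 in the same cells. Of the 330 loci 9 were called higher at UUO-7 (2.73%) and 5 lower (1.52%), together 4.24%. The contrast sets the obstructed groups against each other, while all 16 PT libraries entered the filter, the scaling and the estimate of spread, and with only these 2 groups in the fit 31 loci were higher and 14 lower. The clearest was miR-375-3p, which averaged 98.5 ± 16.7 CPM in sham, 224 ± 44.8 at UUO-2 and 1507 ± 318 at UUO-7 (log2 2.75 ± 0.228 between the obstructed groups, edgeR adjusted p = 5.19e-07). miR-181d-5p rose from 106 ± 19.1 CPM at UUO-2 to 324 ± 66.8 (log2 1.60, edgeR adjusted p = 0.00805), miR-298-5p from 5.56 ± 1.82 to 24.1 ± 4.65 (log2 2.12, edgeR adjusted p = 0.0159) and let-7i-5p from 4618 ± 514 to 9350 ± 2470 (log2 1.02, edgeR adjusted p = 0.0249). miR-146b-5p averaged 153 ± 13.6 CPM at UUO-2 and 357 ± 43.6 at UUO-7 (log2 1.22, edgeR adjusted p = 0.000653), where sham was at 163 ± 26.3. Lower calls included miR-190a-5p (57.7 ± 7.38 to 20.0 ± 3.56 CPM), miR-455-5p (81.2 ± 20.6 to 33.3 ± 6.95 CPM) and miR-29c-3p (259 ± 26.7 to 136 ± 28.0 CPM).

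Most of the other large changes were not called between the obstructed groups. miR-182-5p averaged 3662 ± 628 CPM at UUO-2 and 10670 ± 4094 at UUO-7, with an edgeR adjusted p of 0.0555. miR-653-5p averaged 136 ± 19.9 CPM at UUO-2 and 111 ± 40.2 at UUO-7, miR-21a-5p 23440 ± 1902 and 24650 ± 7717, and miR-192-5p 72470 ± 14260 and 45430 ± 9846. The number of calls in this contrast varied between settings from 3 to 31 higher and from 2 to 14 lower, with 3 higher calls without UUO-2 replicate 4, 5 without UUO-2 replicate 3, and 15 without UUO-7 replicate 3. After reimplantation the R-UUO libraries, given as values only, averaged 741 ± 194 CPM for miR-375-3p, 1182 ± 351 for miR-204-5p, 10730 ± 8592 for miR-182-5p and 49200 ± 25290 for miR-192-5p, with wide spreads that include a replicate 1 with a TMM factor of 0.427, and 5.96 ± 3.15 for miR-210-5p, which had averaged 23.8 ± 5.32 at UUO-7.

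Whether these changes were particular to PT cells was tested as a difference of changes, the log2 change from sham to UUO-7 in PT cells minus the mean of that change in ECs, Macs and PDGFR-β+ cells, fitted over all 63 libraries. Of 671 loci tested in this way the difference was called higher for 103 (15.4%) and lower for 56 (8.35%), together 23.7%. Of the 84 loci called higher in PT cells 65 also had a difference called higher and 2 lower, and of the 58 called lower 22 had a difference called lower and 1 higher. The PT libraries that gave the 84 and 58 calls also enter the difference. Loci chosen for a large PT change thus lean to a difference of the same sign, and the overlap is no separate evidence. Scaling by library size alone gave 63 higher and 134 lower differences, with a median of -0.563 over all loci.

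Some increases stood against negative changes elsewhere. miR-204-5p rose by a log2 of 3.50 ± 0.356 in PT cells on this scale and changed by -1.76 ± 0.328 in ECs, 0.37 ± 0.328 in Macs and -1.43 ± 0.359 in PDGFR-β+ cells, a difference of 4.44 ± 0.405 (edgeR adjusted p = 7.68e-13). Its level in ECs went from 2796 ± 741 to 825 ± 124 CPM and in PT cells from 112 ± 20.1 to 1268 ± 268, so that the PT mean, the lower of the 2 in sham, was the higher at UUO-7. miR-653-5p changed by 4.08 ± 0.564 in PT cells and by -2.20 ± 0.647 in PDGFR-β+ cells (difference 5.02 ± 0.654, edgeR adjusted p = 1.37e-08), and miR-141-3p by 3.49 ± 0.453 in PT cells and -1.0 ± 0.413 in Macs (difference 3.65 ± 0.505, edgeR adjusted p = 8.44e-08). miR-10a-5p (difference 1.93 ± 0.337), let-7i-5p (1.54 ± 0.188), miR-181c-5p (2.84 ± 0.322) and miR-181d-5p (2.58 ± 0.253) also rose more in PT cells than in the other 3 on average.

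Other increases were also seen in some of the other populations. miR-182-5p rose by 4.43 ± 0.401 in PT cells, 2.13 ± 0.363 in ECs, 1.87 ± 0.361 in Macs and 1.30 ± 0.375 in PDGFR-β+ cells, and miR-375-3p by 4.04 ± 0.472, 1.88 ± 0.427, 2.43 ± 0.440 and 0.67 ± 0.446, with differences of 2.66 and 2.38 that were both called. miR-21a-5p rose by 1.85 ± 0.268 in PT cells, and its log2 change was 2.31 ± 0.273 in ECs, 0.36 ± 0.260 in Macs and 4.99 ± 0.314 in PDGFR-β+ cells, and its difference of -0.71 ± 0.303 was not called (edgeR adjusted p = 0.0845). miR-146b-5p changed by 1.24 ± 0.189 in PT cells, 1.26 ± 0.186 in ECs, 1.61 ± 0.186 in Macs and 5.20 ± 0.222 in PDGFR-β+ cells, with a difference called lower at -1.46 ± 0.218 (edgeR adjusted p = 3.26e-07). For miR-192-5p, which changed by -1.52 ± 0.274 in PT cells, -0.58 ± 0.269 in ECs, -1.31 ± 0.273 in Macs and -0.91 ± 0.296 in PDGFR-β+ cells, the difference of -0.58 ± 0.312 was not called (edgeR adjusted p = 0.185).

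Among the decreases, miR-181b-5p moved against the other populations, with a log2 of -1.05 ± 0.166 in PT cells and of 0.82 ± 0.165 in ECs, 1.06 ± 0.166 in Macs and 1.63 ± 0.177 in PDGFR-β+ cells (difference -2.22 ± 0.195, edgeR adjusted p = 2.20e-13). miR-455-5p changed by -1.79 ± 0.274 in PT cells, -1.59 ± 0.275 in Macs and 2.12 ± 0.291 in PDGFR-β+ cells, a difference of -2.13 ± 0.320 (edgeR adjusted p = 3.32e-07). miR-29c-3p was lower in all 4 populations, by a log2 of -1.28 in PT cells, -0.98 in ECs, -2.21 in Macs and -2.78 in PDGFR-β+ cells, so that its difference was called in the positive direction (0.71 ± 0.242, edgeR adjusted p = 0.0224).

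The largest fitted differences rested on loci too rare in PT cells to be tested there. miR-598-3p, miR-350-3p, miR-34b-3p and miR-5114 had no count in the 4 sham libraries and 26, 22, 32 and 35 at UUO-7. Against a floor of 3 counts over the sham group they were at least 3.24-fold, 2.74-fold, 3.99-fold and 4.36-fold higher. miR-7213-5p had 1 count in sham and 27 at UUO-7, a ratio of 10.1 with an exact 95% interval of 1.66 to 413. In the other direction miR-7219-3p had 4 counts in sham and none at UUO-7, at least 3.57-fold lower, and without sham replicate 1 its difference was -0.75. miR-7063-5p had 9 counts in sham and 2 at UUO-7 (ratio 0.0831, exact 95% interval 0.00873 to 0.401), miR-190a-3p 11 and 3 (ratio 0.102, exact 95% interval 0.0183 to 0.386), miR-1983 17 and 19 and miR-135a-5p 17 and 10 at its chromosome 9 locus. miR-1983 changed by a log2 of -1.08 ± 0.851 in PT cells, 0.16 in ECs, 3.65 in Macs and 5.38 in PDGFR-β+ cells. The call of the difference was lost in 7 of 14 other settings for miR-135a-5p, 6 of 14 for miR-5114 and 5 of 14 for miR-190a-3p. It was lost in 2 of 14 for miR-7219-3p, 2 of 12 for miR-7063-5p and 1 of 14 for miR-598-3p.

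**Figure D5:**
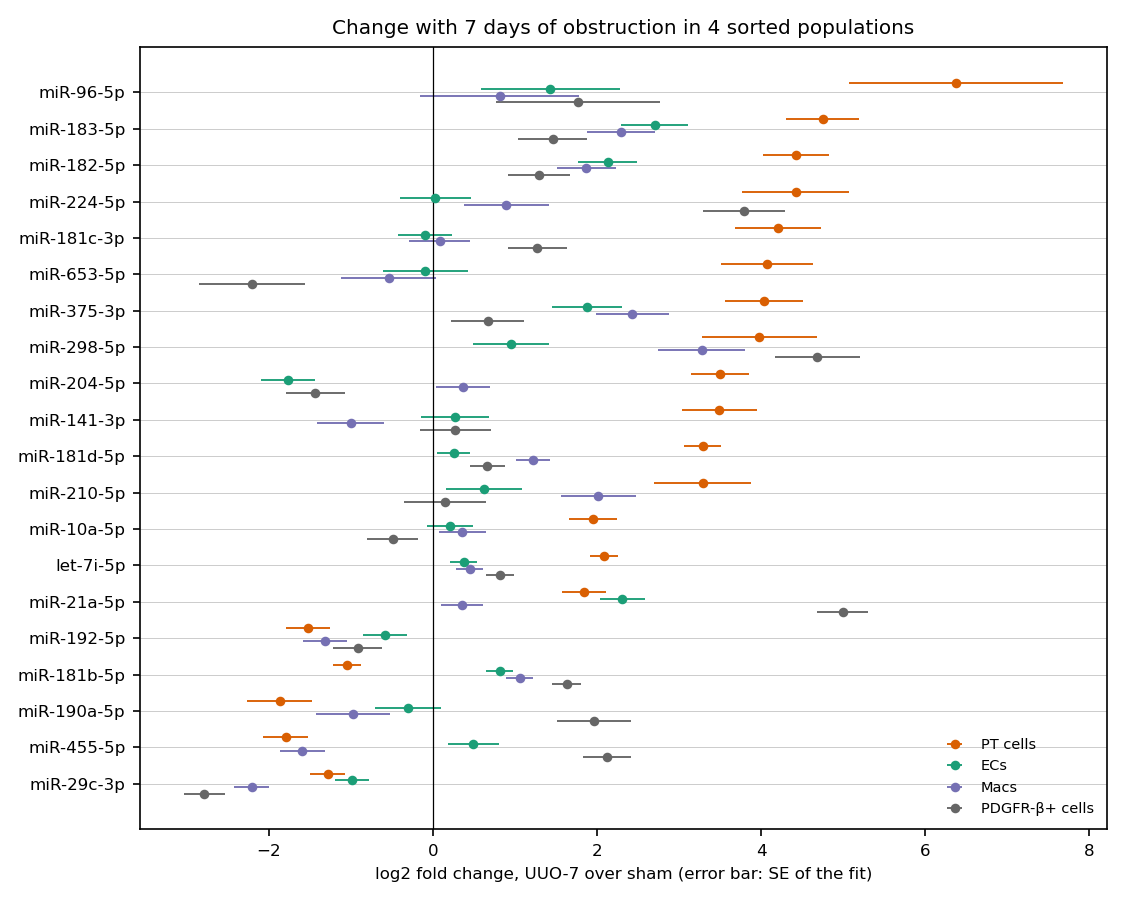
Points give the log2 fold change of UUO-7 over sham in each of the 4 sorted populations, fitted over all 63 libraries, with the SE of the fit as the error bar, for the 12 largest increases in PT cells and 8 further miRNAs. For miR-204-5p the PT value of 3.50 stands against -1.76 in ECs and -1.43 in PDGFR-β+ cells, and for miR-21a-5p the PDGFR-β+ value of 4.99 lies above the PT value of 1.85.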

How the data were processed

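Small RNA libraries of sorted kidney cells were trimmed by the authors with Trim Galore 0.4.1 and cutadapt 1.1 and aligned with ShortStack and Bowtie to mouse build GRCm38 with miRBase 22 loci. The deposited values are raw counts per miRNA locus and library, not normalized. A column of totals over the authors' merged alignment was not used. Use of strand and the placement of reads that match several loci are not given in the sources used here.

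Groups were taken from the sample labels. Loci were filtered with filterByExpr, scaled by TMM and tested with edgeR 4.0.16 (R 4.3.3, limma 3.58.1) by a robust quasi-likelihood fit over 16 PT libraries, for UUO-7 against sham and against UUO-2. The difference of changes was fitted over 63 libraries, with 671 loci tested. Calls needed a Benjamini-Hochberg adjusted p under 0.05 and a fold change over 1.5. Levels are CPM on the TMM scale, with SD over 4 mice (3 for PDGFR-β+ cells at UUO-7), and log2 changes carry the SE of the fit. Each replicate is a separate mouse. Totals per library set the precision of low values, and intervals and floors cover counting error only.

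Named loci were, of those called without overlap, the 12 with the largest increase and the 12 with the largest decrease, the 10 most abundant, the 5 with the largest difference in each direction, and members of family and marker lists, skipping loci that overlap a locus of higher count by 50% or more. The members and lists were chosen with earlier results of these data known. The fit was tested on simulated data, where 49 of 50 loci raised by a log2 of 2, 47 of 50 lowered by 2 and 32 of 49 changed by 1 in either direction were called, with 3 of 128 unchanged loci, among 330 loci for UUO-7 against sham. For the difference of changes, 94 of 100 changed loci and 2 unchanged loci of 671 were called. In both simulations raised and lowered loci were balanced and drawn at random, and no library was made outlying. They do not test the scaling under a shift like that of miR-10a-5p, or the effect of a library such as UUO-7 replicate 4. Alternatives were DESeq2 1.42.0, edgeR's likelihood ratio test, other scalings, no filter on low counts, thinning, fits on fewer groups, a replicate block, summing or leaving out redundant loci, and leaving out each library.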

Additional observations from a re-analysis of the deposited data

Results flagged for a closer look

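A library was looked at again where its gap to the nearest of the other 3, divided by the range of its group, passed Dixon's 95% critical value for 4 samples. This held for 21 of 188 group values, where chance gives about 1 in 20. UUO-7 replicate 4, the deepest library, was the high one for miR-653-5p at 171 CPM, miR-141-3p at 2170 CPM, miR-210-5p at 31.7 CPM, miR-27b-3p at 35400 CPM, miR-21a-5p at 36100 CPM, miR-27a-3p at 672 CPM, miR-181c-5p at 862 CPM, miR-10a-3p at 239 CPM, miR-148a-3p at 1290 CPM and miR-143-3p at 20100 CPM. UUO-7 replicate 3 was high for miR-127-3p at 213 CPM and miR-541-5p at 64.6 CPM and low for miR-501-3p at 65.1 CPM, and UUO-7 replicate 2 was high for miR-191-5p at 20700 CPM. Among sham libraries, replicate 1 was high for miR-96-5p at 1.08 CPM, a single count, and for miR-34a-5p at 53.9 CPM, miR-23a-3p at 93.9 CPM and miR-31-5p at 31.3 CPM. Sham replicate 4 was high for miR-203b-3p at 71.6 CPM, replicate 3 low for miR-5119 at 33.4 CPM and replicate 2 low for miR-23b-3p at 446 CPM.

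The change in PT cells was set against the mean change in the other populations, by edgeR's test of the difference over 63 libraries. Of the 24 loci named for the size of their change in PT cells 17 had a called difference, where 23.7% of all 671 loci did. The choice of these 24 used the same PT libraries. Another 10 loci were named because their called difference was among the largest, so their calls are no result. The log2 difference was 5.04 for miR-96-5p, 2.6 for miR-183-5p, 2.66 for miR-182-5p, 2.85 for miR-224-5p, 3.79 for miR-181c-3p, 5.02 for miR-653-5p, 2.37 for miR-375-3p, 4.44 for miR-204-5p, 3.65 for miR-141-3p, 2.57 for miR-181d-5p and 2.36 for miR-210-5p. It was -2.15 for miR-5126, -2.57 for miR-185-3p, -2.09 for miR-190a-5p, -2.13 for miR-455-5p, -2.98 for miR-8114 and -3.04 for miR-455-3p. A difference from a mean can be called although 1 of the other populations changed much as PT cells did. miR-5126 changed by -2.47 in PT cells, -2.55 in ECs, 0.85 in Macs and 0.75 in PDGFR-β+ cells. miR-224-5p changed by 4.42 in PT cells, 0.03 in ECs, 0.90 in Macs and 3.79 in PDGFR-β+ cells. The 10 loci named for their difference gave 6.77 for miR-598-3p, 6.13 for miR-350-3p, 5.96 for miR-34b-3p, 5.44 for miR-5114, 5.18 for miR-7213-5p, -5.81 for miR-7219-3p, -4.79 for miR-7063-5p, -4.56 for miR-190a-3p, -4.15 for miR-1983 and -4.11 for miR-135a-5p on chromosome 9.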

How the results depend on the processing

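The counts of calls between UUO-7 and sham stayed within 1.5 times of the reported 84 higher and 58 lower under every alternative run, from 61 (library size only) to 96 (no filter) higher and from 45 (thinned, and loci of a name summed) to 80 (library size only) lower, and from 67 to 78 higher and 45 to 62 lower with 1 library left out. Against UUO-2, where 9 were higher and 5 lower, the higher calls were 21 under DESeq2, 19 under the likelihood ratio test, 18 with no filter, 31 with only the 2 groups in the fit, 14 with the replicate block and 3 to 15 with 1 library left out. The lower calls there were 3 by library size only, 14 with only the 2 groups, 2 with the replicate block, 2 when thinned and 3 to 6 with 1 library left out. The difference of changes, with 103 higher and 56 lower, gave 63 and 134 by library size only, and 90 to 98 and 41 to 64 with 1 replicate left out. The cause was not tested. Same-numbered sham and UUO-7 libraries are different mice, and the correlations of their deviations (0.096, -0.087 and -0.109) do not pair them. With the replicate block 81 loci were called higher at UUO-7 and 56 lower, and with the mouse as a replicate block 108 and 59 differences were called.

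Some miRNAs near 0 that were not called turned sign. let-7f-5p on chromosome X was -0.305 by library size only, -0.0302 when thinned and -0.0189 to 0.112 with 1 library left out. miR-30a-5p was -0.331, -0.0404 and, with 1 library left out, -0.115 to 0.0894. miR-26a-5p on chromosome 10 was -0.231 by library size only and -0.00889 to 0.186 with 1 library left out (the lowest without UUO-7 replicate 4), miR-191-5p was -0.18 and miR-532-5p -0.0116 by library size only. miR-501-3p was -0.00114 under DESeq2, -0.367 by library size only, -0.0048 with RLE scaling, -0.00619 with only the 2 groups, -0.0426 when thinned, -0.0192 with overlapping loci left out and -0.0947 to 0.104 with 1 library left out. miR-126b-3p was -0.263 by library size only, -0.0136 when thinned and -0.0582 to 0.16 with 1 library left out, and miR-126b-5p was 0.031 with no filter, 0.241 with the replicate block, 0.0164 with loci of a name summed and -0.248 to 0.0262 with 1 library left out. Depth limits the rare loci, since 3 counts are worth up to 3.83 CPM in sham.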
